A study of Mus musculus with 9 samples.

Results

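Cytosolic ribosomal protein genes encode the proteins of the large (60S) and small (40S) subunits of the ribosome. The members were all probes whose annotated gene symbol is Rpsa, Rplp0, Rplp1 or Rplp2, or begins with Rpl or Rps followed by a digit, leaving out the S6 kinases, Rps19bp1 and names of pseudogenes. This gave 48 of 26423 probes, for 39 of 17742 named genes. Not every ribosomal protein gene is among them: Rpl3, Rpl7, Rps6 and Rplp1, for example, had no probe under the rule. Of the 39 genes 31 had 1 probe, 7 had 2 probes and Rpl3l had 3. By role, 25 probes of 21 genes belonged to the large subunit, 15 probes of 13 genes to the small subunit, 1 probe (Rplp0) to the stalk, and 7 probes of 4 genes (Rpl3l, Rpl7l1, Rpl39l and Rps27l) to paralogues, which are second copies with sequences close to a standard ribosomal protein.

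RNA of female BALB/c mice was hybridised to 9 one-colour arrays in 3 groups of 3. The mock group had shaved back skin covered with Vaseline cream, and the IMQ group received imiquimod, a toll-like receptor agonist that brings on psoriasis-like inflammation, on the same site. The vanillin group received the same topical imiquimod together with vanillin by mouth at 100 mg/kg, and all treatments ran for 7 days. The tissue label is skin, while the extraction text names muscle, and no label states that the arrays of a group came from separate mice. If they did not, p-values reflect only array-to-array spread, which may be technical. No group received vanillin alone.

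Each ribosome contains 1 copy of nearly every ribosomal protein, and cells usually make these proteins in step. Their mRNAs typically begin with a short run of pyrimidines, the terminal oligopyrimidine tract, through which mTOR signalling and the RNA-binding protein Larp1 set how strongly they are translated, while Myc raises transcription of ribosomal protein genes in growing cells. In psoriatic epidermis keratinocytes divide and mature faster than in resting skin, which calls for much protein synthesis. Some ribosomal protein paralogues are made mainly in 1 tissue: Rpl3l replaces Rpl3 in heart and skeletal muscle, and Rpl39l is best known from the testis.

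The start regions of 7 genes on which the results turned are shown here so that their pyrimidine content around the annotated start can be compared. Each line gives 50 bases before and 10 after the annotated start, from RefSeq (GRCm38.p6), 5′ to 3′ on the transcribed strand, with the longest unbroken run of C and T anywhere in the 60 bases in capitals. Where lengths tied, only the first run is in capitals. A run in capitals need not be the terminal tract, and in none of these 7 lines did it reach the annotated start. Shorter runs, left in lower case, can do so, as in Rps15a, where such a run spans the start. The first 4 genes were higher with imiquimod, Rps3a1 and Rps7 were lower, and Rps15a had probes that went both ways.
Rps3, chr7:99483700-99483759, minus strand: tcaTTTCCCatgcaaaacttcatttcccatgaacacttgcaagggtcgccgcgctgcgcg
Rpl27, chr11:101442195-101442254, plus strand: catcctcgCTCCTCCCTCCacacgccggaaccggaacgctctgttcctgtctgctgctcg
Rplp0, chr5:115559417-115559476, plus strand: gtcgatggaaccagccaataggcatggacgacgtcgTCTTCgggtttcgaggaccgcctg
Rps25, chr9:44407664-44407723, plus strand: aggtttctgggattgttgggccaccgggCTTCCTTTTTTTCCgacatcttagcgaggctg
Rps3a1, chr3:86142659-86142718, minus strand: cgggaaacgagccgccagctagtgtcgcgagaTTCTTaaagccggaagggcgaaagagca
Rps7, chr12:28635944-28636003, minus strand: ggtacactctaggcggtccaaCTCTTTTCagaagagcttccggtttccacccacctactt
Rps15a, chr7:118116138-118116197, minus strand: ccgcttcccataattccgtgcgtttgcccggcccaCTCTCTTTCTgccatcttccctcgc

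The longest run was 6 bases in Rps3 and 11 in Rpl27, where 41 and 31 bases lay between the capitals and the start. In Rps3 another run of 6 bases, in lower case, lies nearer the start. The longest run was 5 bases in Rplp0, 14 in Rps25, 5 in Rps3a1, 8 in Rps7 and 10 in Rps15a, with 9, 8, 13, 21 and 5 bases between it and the start. RefSeq promoters, from 250 bases before to 50 after the start, were at hand for 34 of the 39 genes. A run of at least 8 pyrimidines within 25 bases of the start was present in 16 of these 34 genes (47.1%) and in 22.3% of the 27025 genes of the table. With a minimum of 6 pyrimidines the numbers were 23 of 34 (67.6%) and 47.8%. The motif CCGGAAG, a core of Ets family sites, was found on either strand in 14 of 34 genes (41.2%) and in 9.93% of all genes. GGGCGG, the core of Sp1 sites, was found in 22 of 34 (64.7%) and in 38.2% of all genes, and AAGATGGCG, a core of YY1 sites, in 3 of 34 (8.82%) and in 1.64%. A TATAAA box was found in 3 of 34 (8.82%) and in 15.7%. The reverse strand of CCGGAAG can overlap a pyrimidine run, and genes with several listed starts had more sequence to match. Of 11 matched genes with only higher calls for IMQ against mock, 4 had a run of at least 8 pyrimidines, 7 had a run of at least 6, and 6 had CCGGAAG. Of 11 with only lower calls, 5 had a run at either minimum and 4 had CCGGAAG. No difference between these counts was tested.

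Intensities are given as log2 values, on which 1 unit is a doubling, and differences are between group means. A probe was called at a Benjamini-Hochberg adjusted p under 0.05 in limma over all 26423 probes. The level of one probe cannot be set against that of another, so "dimmer" and "brighter" serve as names for probes of the same gene. Ribosomal protein genes have many near-identical pseudogene copies, probe sequences were not used here, and which transcripts each probe binds is therefore uncertain. The median member lay at percentile 66.7 of mean intensity among all probes, 15 of 48 probes lay under the median of the array, and 7 lay at or above percentile 90. Rps29, at percentile 2.55, was among the lowest. Median array intensities ran from 629 to 631, since the deposited values had been equalised between arrays. A shift of all ribosomal protein mRNA along with all other mRNA could not be seen in them. The median SD of a member was 0.13 in mock, 0.06 in IMQ and 0.15 in vanillin, beside 0.16, 0.08 and 0.17 for all probes. With 3 arrays a group, precision is limited by their number.

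Marker genes of other cell types also differed between the groups. Activated keratinocyte markers, such as Krt6b and Krt16, were called higher for 6 of 7 measured genes in IMQ against mock. Their summed level, the log2 of added intensities, was 18.62 to 18.68 in mock, 19.96 to 20.00 in IMQ and 20.04 to 20.16 in vanillin. Bright probes weigh most in such a sum, here Krt17, which read -0.18 in IMQ against mock and was not called. The median difference of the 7 genes was 4.08. All 4 melanocyte markers were called lower, with summed levels of 17.18 to 17.23 in mock and 15.89 to 15.90 in IMQ. Markers of basal keratinocytes gave 2 higher and 3 lower of 7, and their summed levels overlapped between all groups. Cell cycle genes gave 1 higher and 5 lower of 10 measured in IMQ against mock, with Aurkb at 0.81 and Mki67 at -0.57. Among all probes 24.0% were called higher and 29.6% lower. In bulk tissue fewer cells of a type and less RNA per cell cannot be told apart, and the part of such shifts in the ribosomal protein values was not tested.

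**Figure D1:**
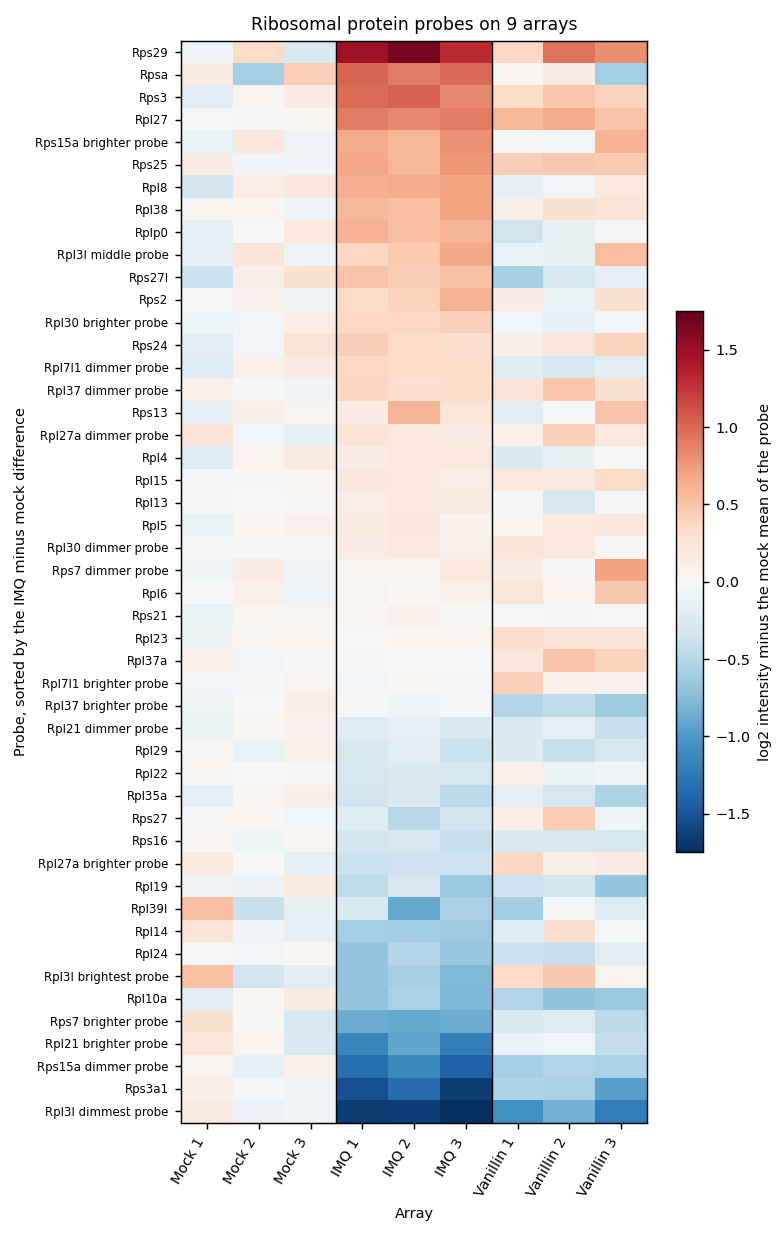
Log2 intensity of each of the 48 ribosomal protein probes (rows, sorted by the IMQ minus mock difference) on the 9 arrays (columns), as the difference from the mock mean of the same probe. The IMQ columns run from red at the top to blue at the bottom, with 15 probes called higher and 15 called lower; against mock the vanillin columns have 6 called higher and 9 called lower.

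IMQ against mock compares imiquimod with the cream alone. Ribosomal protein probes did not move as one block: of 48 probes 15 rose, 15 fell and 18 did not pass the test. Probes of the same gene also differed in call for all 8 genes with several probes: 7 had only some probes called, and Rps15a had opposite calls. Mixed calls therefore need not mean that genes moved apart. The share called was 62.5%, beside 53.6% of all probes, 55.9% of probes with a gene symbol and 56.8% of the brightest 10% of probes. By direction, all probes gave 24.0% higher and 29.6% lower. The median difference of the 48 probes was 0.08, beside -0.04 for all probes, and their median size without regard to sign was 0.37, beside 0.43. The groups of 3 arrays did not overlap for 37 of the 48 probes, beside 68.0% of all probes. Counting 1 probe per gene, the brightest, gave 13 higher and 13 lower of 39 genes. Without IMQ replicate 3 the number called lower fell to 9, and without other single arrays it ran up to 16.

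Among small subunit genes the largest rises were those of Rps29, Rpsa and Rps3. Rps3, which lines the site where mRNA enters the ribosome and also takes part in DNA repair, read 10.16, 10.41 and 10.51 in mock, 11.34, 11.40 and 11.20 in IMQ, and 10.68, 10.85 and 10.75 in vanillin. All IMQ arrays lay above all others, and all vanillin arrays lay above all mock arrays. Its difference for IMQ against mock was 0.95 ± 0.11 (SE, limma adjusted p = 0.000174), a 1.93-fold rise. Rpsa, which assembles into the small subunit and was first described as a laminin receptor, read 6.89, 6.12 and 7.13 in mock against 7.73, 7.63 and 7.70 in IMQ, and 6.75, 6.86 and 6.12 in vanillin. The IMQ arrays stood above both other groups, which overlapped. Its rise was 0.97 ± 0.27 (SE, limma adjusted p = 0.0142). The Rpsa probe is dim, at percentile 20.9 of intensity, and over other settings its rise ran from 0.68 to 1.43. Rps29, a small zinc-binding protein, read 4.31, 4.74 and 4.12 in mock, 5.87, 6.04 and 5.69 in IMQ, and 4.75, 5.34 and 5.20 in vanillin. These values lie near the lowest intensities, so its difference of 1.48 ± 0.20 (SE, limma adjusted p = 0.000345) is given without a fold, and it was 0.61 with an offset of 50 added to every intensity. Rps25, which is needed for some internal ribosome entry sites, read 10.42 ± 0.12 in mock and 11.09 ± 0.09 in IMQ (SD, n = 3), with no overlap, a rise of 0.67 ± 0.09 (SE). Rps2 (0.44 ± 0.12) and Rps24 (0.36 ± 0.13) were called higher as well, as was 1 probe of Rps15a. The Rps2 call was lost without IMQ replicate 3 (limma adjusted p = 0.0614). That of Rps24 was lost without any 1 of the IMQ arrays, mock replicate 1 or 2 or vanillin replicate 2, and with a replicate block (limma adjusted p up to 0.134).

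The largest fall in the small subunit was that of Rps3a1, also known as Rps3a. It read 9.16, 9.02 and 8.99 in mock, 7.52, 7.73 and 7.40 in IMQ, and 8.52, 8.48 and 8.11 in vanillin, and the 3 groups did not overlap. The difference for IMQ against mock was -1.51 ± 0.14 (SE, limma adjusted p = 4.41e-05), 2.84-fold lower. Rps7, which can bind the p53 regulator Mdm2, fell on its brighter probe from readings of 13.38 to 13.91 to readings of 12.76 to 12.79, a difference of -0.87 ± 0.14 (SE, limma adjusted p = 0.000736). Its dimmer probe read 0.10 ± 0.17 and was not called. Rps16 was called lower at -0.35 ± 0.08. Rps13 (0.31 ± 0.19), Rps21 (0.05 ± 0.08) and Rps27 (-0.35 ± 0.14) did not pass the test. Over the 15 small subunit probes, 7 rose, 4 fell and 4 did not pass, with a median of 0.31. The share called was 73.3%, beside 53.6% of all probes.

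The large subunit gave 5 higher, 9 lower and 11 not called of 25 probes, with a median of 0.03. Its share called was 56.0%, near the 53.6% of all probes. Rpl27 read 7.52, 7.51 and 7.55 in mock, 8.42, 8.37 and 8.44 in IMQ, and 8.09, 8.17 and 8.03 in vanillin. The 3 groups were fully apart, and the IMQ difference was 0.88 ± 0.08 (SE, limma adjusted p = 3.96e-05), a 1.85-fold rise. Rpl8, a core protein near the peptidyl transferase centre, read 16.36, 16.82 and 16.88 in mock and 17.32, 17.34 and 17.37 in IMQ, a rise of 0.66 ± 0.15. It is among the brightest probes of the array. Rpl38, whose loss alters the axial skeleton in mice, rose by 0.59 ± 0.09 and was 1.51-fold higher. The brighter probe of Rpl30 (0.38 ± 0.09) and the dimmer probe of Rpl37 (0.33 ± 0.10) were also called higher. The Rpl37 call was lost without IMQ replicate 1 (limma adjusted p = 0.0668) or mock replicate 3 (limma adjusted p = 0.0514).

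Rpl21 fell furthest in the large subunit. Its brighter probe read 10.25, 10.09 and 9.76 in mock, 8.89, 9.13 and 8.83 in IMQ, and 9.92, 9.99 and 9.61 in vanillin. The IMQ arrays lay below all others, and the difference was -1.08 ± 0.16 (SE, limma adjusted p = 0.000508), 2.12-fold lower, while its dimmer probe read -0.22 ± 0.10 and was not called. Rpl10a read 8.72, 8.96 and 9.08 in mock, 8.23, 8.36 and 8.14 in IMQ, and 8.40, 8.22 and 8.27 in vanillin, so both imiquimod-treated groups lay below mock. Its difference was -0.68 ± 0.12. Also called lower were Rpl24 (-0.62 ± 0.09), Rpl14 (-0.61 ± 0.14), Rpl19 (-0.46 ± 0.14), the brighter probe of Rpl27a (-0.37 ± 0.11), Rpl35a (-0.34 ± 0.13), Rpl22 (-0.29 ± 0.08) and Rpl29 (-0.28 ± 0.10). Of these, Rpl24 and Rpl14 passed in every alternative run. The calls of Rpl22 and Rpl27a were lost without IMQ replicate 1 or 3, and that of Rpl19 without IMQ replicate 3 or mock replicate 3 (limma adjusted p up to 0.0755). That of Rpl29 was lost without IMQ replicate 1 or 3 or mock replicate 1 or 3, and with a replicate block (limma adjusted p up to 0.127). That of Rpl35a, at a limma adjusted p of 0.0493, was lost without any 1 of the IMQ arrays, mock replicate 2 or 3 or vanillin replicate 2, with a replicate block and with very bright probes left out. The 11 probes not called ranged from -0.22 to 0.19, among them Rpl5, a partner of the 5S RNA that binds Mdm2 (0.14 ± 0.09), and Rpl4 (0.17 ± 0.11).

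**Figure D2:**
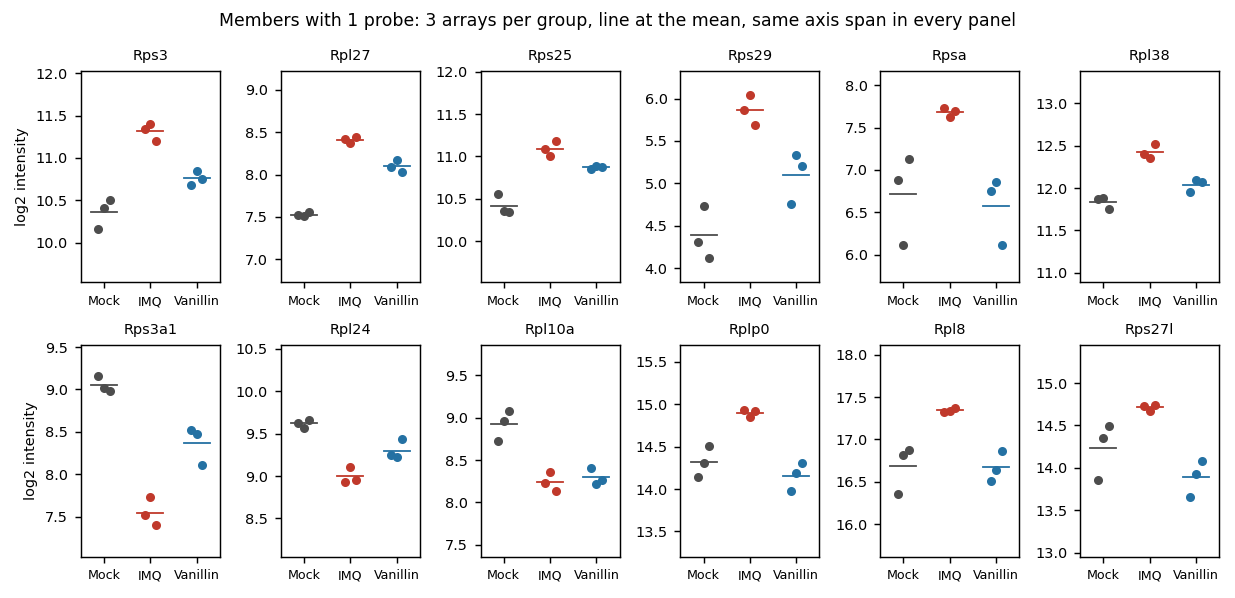
Log2 intensity of 12 members that have 1 probe each, with 1 point per array, 3 arrays per group, and a line at the group mean; every axis spans the same range. In Rps3, Rpl27, Rps25, Rps29, Rpsa, Rpl38, Rplp0, Rpl8 and Rps27l the IMQ points lie above all others. In Rps3a1 and Rpl24 they lie below all others, and in Rpl10a the IMQ and vanillin points overlap below mock.

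Rplp0, the base of the stalk that draws elongation factors to the ribosome, was the only stalk gene measured. It read 14.14, 14.31 and 14.51 in mock, 14.93, 14.85 and 14.92 in IMQ, and 13.97, 14.19 and 14.31 in vanillin. The IMQ arrays were above all others and the mock and vanillin arrays overlapped. The rise with imiquimod was 0.58 ± 0.12 (SE, limma adjusted p = 0.00372), or 1.49-fold. Rplp0 is often used as a reference gene for normalization, and on these arrays it was called in IMQ against each of the other groups.

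The paralogues gave 2 probes higher, 2 lower and 3 not called for IMQ against mock. Their share called was 57.1%, near the 53.6% of all probes. Rps27l, a p53-inducible copy of Rps27, read 13.86, 14.35 and 14.50 in mock and 14.73, 14.67 and 14.74 in IMQ, a rise of 0.48 ± 0.17 (SE, limma adjusted p = 0.0423). Its call was lost without any 1 of IMQ replicates 1, 2 and 3, mock replicates 1 and 2 and vanillin replicate 2 (limma adjusted p up to 0.106), and the rise was 0.29 without mock replicate 1. Its parent Rps27 read 9.21, 9.22 and 9.14 in mock and 8.98, 8.70 and 8.85 in IMQ and was not called (limma adjusted p = 0.0585). It was called in IMQ against mock with array weights, with dim probes left out, with the third group out of the model, and without vanillin replicate 2 or 3. Rpl7l1, a homologue of Rpl7 that acts in ribosome assembly, rose by 0.34 ± 0.11 on its dimmer probe, a call lost without any 1 of the IMQ arrays (limma adjusted p up to 0.0766); the rise was 0.23 without mock replicate 1. Its brighter probe read -0.01 ± 0.10. Rpl39l read -0.57 ± 0.26 and passed the test only without mock replicate 2 (limma adjusted p = 0.0431).

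Rpl3l had the largest difference of all members, but its 3 probes did not give the same picture. The dimmest probe read 10.24, 9.98 and 10.01 in mock, 8.41, 8.43 and 8.26 in IMQ, and 9.02, 9.24 and 8.85 in vanillin, with the 3 groups fully apart. Its difference for IMQ against mock was -1.71 ± 0.12 (SE, limma adjusted p = 1.55e-05), 3.26-fold lower. The brightest probe read 13.67, 12.82 and 12.96 in mock, 12.48, 12.57 and 12.38 in IMQ, and 13.50, 13.61 and 13.22 in vanillin. It fell by 0.67 ± 0.21 with imiquimod, a call lost without IMQ replicate 1 or 3 (limma adjusted p up to 0.0760), and the difference was -0.41 without mock replicate 1, the highest of these arrays, and also with array weights. The middle probe read 8.83, 9.19 and 8.88 in mock and 9.33, 9.42 and 9.64 in IMQ, higher on every IMQ array at 0.50 ± 0.19 but not called (limma adjusted p = 0.0565). It was called with dim probes left out, with an offset of 50, with the third group out of the model, and without mock replicate 2 or vanillin replicate 3.

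Skeletal muscle markers were read beside Rpl3l, since that paralogue is made in muscle. Of 16 listed markers 10 were measured, all at or above percentile 73.0 of intensity, and 1 was called higher, 5 lower and 4 not called for IMQ against mock. Their summed log2 level was 18.63 to 18.75 in mock, 18.37 to 18.40 in IMQ and 18.70 to 18.78 in vanillin. The sarcomere gene Neb read -1.34 ± 0.11 and the creatine kinase gene Ckm read -0.64 ± 0.08, while Des, an intermediate filament gene of muscle, was higher at 0.28 ± 0.08. For vanillin against IMQ 9 of the 10 were called higher and 0 lower, beside 24.3% of all probes called higher and 17.0% lower. The part of the muscle content in the Rpl3l readings was not tested. Of all other named genes those with the pattern most like the dimmest Rpl3l probe were Dsc3, Hoxb4, Lbr, Tnc and Ppic, with Pearson correlations of 0.997 to 0.998 over the 9 arrays, which fall into 3 groups. None of these 5 is on the muscle list, which has only 10 measured genes among 17742 named ones. That absence therefore has no bearing on the muscle content.

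Genes with several probes were compared probe by probe. For IMQ against mock 7 of the 8 such genes had some probes called and others not, and all probes were called only for Rps15a. The 2 probes of Rps15a went opposite ways. The dimmer read 7.80, 7.59 and 7.82 in mock, 6.42, 6.60 and 6.32 in IMQ, and 7.15, 7.21 and 7.17 in vanillin. The difference was -1.29 ± 0.10 (SE, limma adjusted p = 2.41e-05). This dimmer probe lies at percentile 22.5 of intensity, and over other settings its difference ran from -1.36 to -0.94. The brighter read 12.14, 12.45 and 12.16 in mock, 12.90, 12.83 and 13.04 in IMQ, and 12.26, 12.20 and 12.86 in vanillin. The difference was 0.68 ± 0.18 (SE, limma adjusted p = 0.0109). Mock and IMQ arrays did not overlap on either probe. The probes of a gene differed by more than 1 log2 unit for 2 genes in this comparison, Rpl3l and Rps15a.

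**Figure D3:**
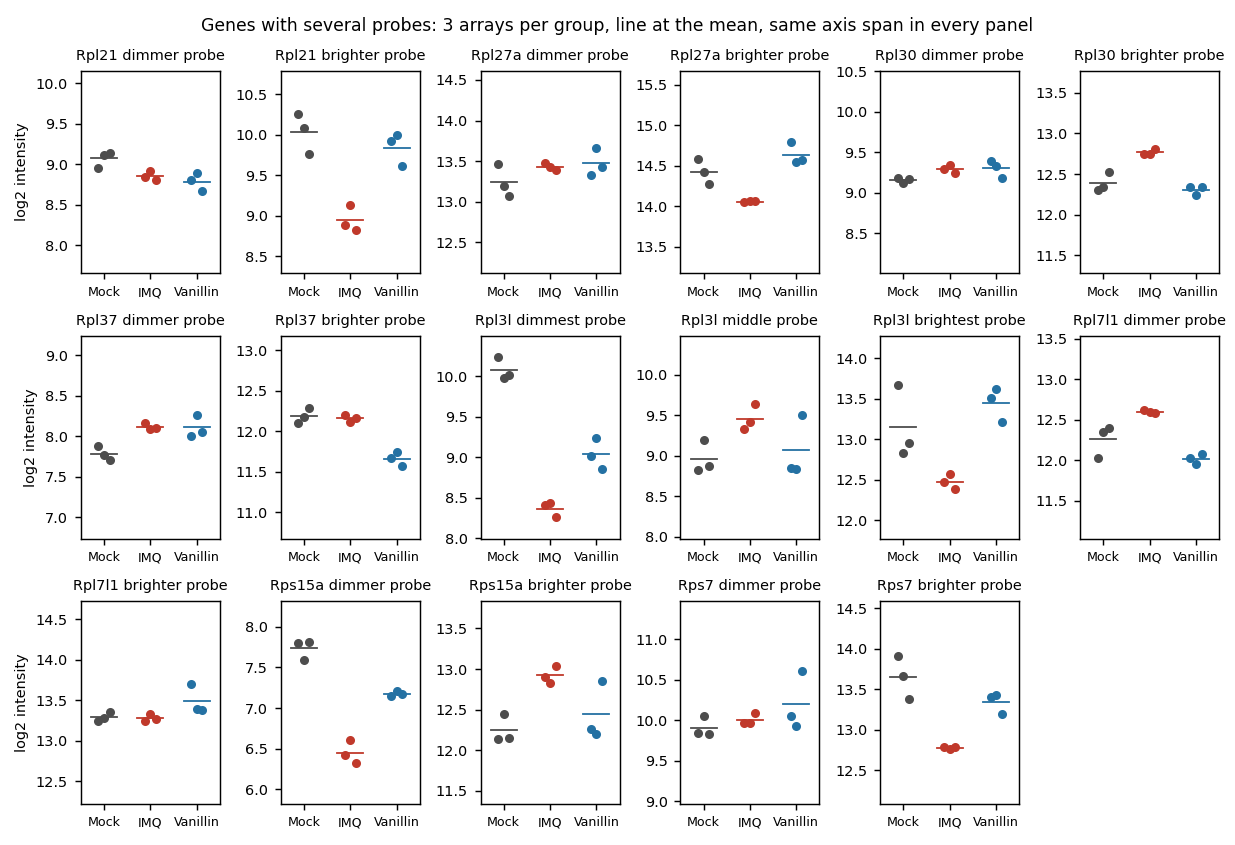
Log2 intensity of the 17 probes of the 8 genes that have several probes, with 1 point per array, 3 arrays per group, and a line at the group mean; every axis spans the same range. The 2 Rps15a probes move in opposite directions with imiquimod, and the middle Rpl3l probe reads higher with imiquimod where the other 2 fall.

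Members were also split at their median intensity, a split chosen after the values were seen. Of the 24 dimmer probes 5 were called higher and 10 lower in IMQ against mock, with a median of -0.25. All 17612 probes on that side of the limit gave 4002 higher and 4851 lower, 50.3% in all, with a median of -0.02. Of the 24 brighter members 10 were called higher and 5 lower, with a median of 0.17. All 8811 probes on that side gave 2328 higher and 2976 lower, 60.2% in all, with a median of -0.07. In vanillin against IMQ the dimmer members gave 6 higher and 4 lower and the brighter members 6 higher and 8 lower, beside 39.0% and 45.7% of all probes called on each side. In vanillin against mock the dimmer members gave 4 higher and 8 lower, beside 20.2% of all dimmer probes called, and the brighter members 2 higher and 1 lower, beside 39.6% of all brighter probes.

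Vanillin against IMQ compares imiquimod-treated mice with and without the oral dose. Of the 48 probes 12 rose, 12 fell and 24 did not pass the test. Among all probes 41.2% were called (24.3% higher and 17.0% lower), and 42.7% of those with a gene symbol and 41.4% of the brightest 10%. The median difference was 0.00, beside 0.03 for all probes, and 30 of 48 probes did not overlap between the groups, beside 58.5% of all probes. This comparison and that of IMQ with mock share the IMQ arrays. On 13 probes the 3 IMQ arrays lay above all 6 other arrays, as they did on 18.3% of all probes. On 11 probes they lay below all others, as on 23.6% of all probes.

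The largest fall with vanillin was that of Rpsa, at -1.11 ± 0.27 (SE, limma adjusted p = 0.0122), 2.16-fold lower, with vanillin readings spread from 6.12 to 6.86. Rps27l, which read 13.66, 13.92 and 14.09 in vanillin, fell by 0.82 ± 0.17 (SE, limma adjusted p = 0.00675). Rplp0 fell by 0.74 ± 0.12 (SE, limma adjusted p = 0.00284) and Rpl8, at 16.51, 16.64 and 16.87 in vanillin, read -0.67 ± 0.15. Rps29 fell by 0.77 ± 0.20, a call lost without IMQ replicate 2 (limma adjusted p = 0.0521), and read -0.36 with an offset of 50. Lower as well were the dimmer probe of Rpl7l1 (-0.58 ± 0.11), Rps3 (-0.55 ± 0.11), the brighter probes of Rpl37 (-0.50 ± 0.09) and Rpl30 (-0.46 ± 0.09), Rpl38 (-0.39 ± 0.09), Rpl27 (-0.31 ± 0.08) and Rpl13 (-0.28 ± 0.09). The Rpl27 call was lost without IMQ replicate 1 or 3 (limma adjusted p up to 0.0589). That of Rpl13 was lost without any 1 array other than mock replicate 1 and vanillin replicate 3, with a replicate block and with the third group out of the model (limma adjusted p up to 0.119).

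Rises with vanillin were led by the brightest probe of Rpl3l, at 0.97 ± 0.21 (SE, limma adjusted p = 0.00790), followed by the brighter probe of Rpl21 at 0.89 ± 0.16 and Rps3a1 at 0.82 ± 0.14. The dimmer probe of Rps15a was higher by 0.73 ± 0.10, while its brighter probe read -0.48 ± 0.18 and was not called (limma adjusted p = 0.0560), though it was with array weights, with dim probes left out, with an offset of 50 and without vanillin replicate 3. The dimmest Rpl3l probe was higher by 0.67 ± 0.12, and the middle one read -0.39 ± 0.19, called only with array weights and without vanillin replicate 3. Rpl14 (0.63 ± 0.14), the brighter probes of Rpl27a (0.58 ± 0.11) and Rps7 (0.56 ± 0.14), Rps27 (0.50 ± 0.14), Rpl37a (0.36 ± 0.10), Rpl24 (0.30 ± 0.09) and Rpl22 (0.25 ± 0.08) made up the rest. The Rps27 call was lost without IMQ replicate 2 or 3, and that of Rpl37a without IMQ replicate 1 or 3 or vanillin replicate 2 (limma adjusted p up to 0.0655). That of Rpl24 was lost without IMQ replicate 1 or 3 or vanillin replicate 1 or 3, that of Rpl22 without any 1 of the IMQ arrays, mock replicate 2 or vanillin replicate 1, and both with a replicate block (limma adjusted p up to 0.124). Rpl10a (0.05 ± 0.12, interval -0.21 to 0.31), Rpl19 (0.01 ± 0.14) and Rps16 (0.07 ± 0.08), all lower with imiquimod, did not pass the test here.

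**Figure D4:**
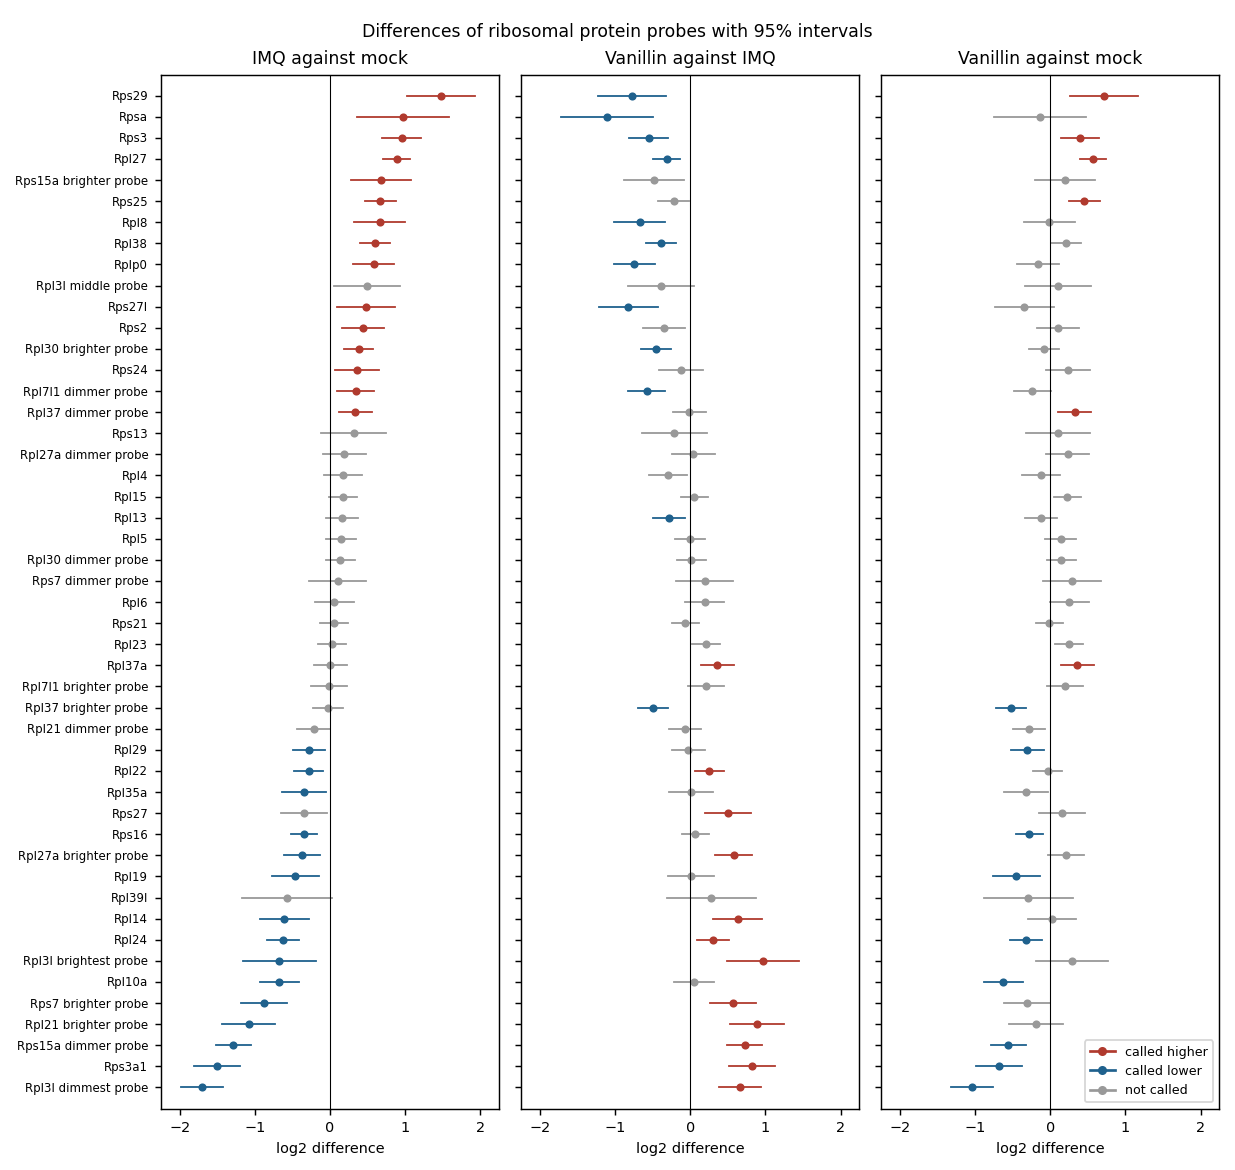
Differences in log2 intensity (points) with 95% intervals from limma (lines) for the 48 probes in each of the 3 comparisons, in the same order in each panel; red is called higher, blue called lower and grey not called. The first panel runs from -1.71 for the dimmest Rpl3l probe to 1.48 for Rps29, and fewest probes are coloured in the last, where 15 were called. The first and second panels share the IMQ arrays.

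The comparison of vanillin with mock, which shares its mock arrays with the first comparison and its vanillin arrays with the second, gave 6 probes higher, 9 lower and 33 not called. That is 31.2%, beside 26.7% of all probes (11.9% higher and 14.7% lower), 29.4% of those with a gene symbol and 41.7% of the brightest 10%, and 21 of 48 probes did not overlap, beside 37.8%. The largest falls were those of the dimmest Rpl3l probe (-1.04 ± 0.12, limma adjusted p = 0.000365), Rps3a1 (-0.69 ± 0.14, limma adjusted p = 0.00575), Rpl10a (-0.62 ± 0.12) and the dimmer probe of Rps15a (-0.56 ± 0.10). The brighter probe of Rpl37 read 12.10, 12.18 and 12.29 in mock, 12.20, 12.12 and 12.16 in IMQ, and 11.67, 11.74 and 11.56 in vanillin, and it was the only member with the vanillin arrays below all 6 others (5.14% of all probes). It fell against mock by 0.53 ± 0.09 (SE, limma adjusted p = 0.00246), while the dimmer probe of Rpl37 was called higher at 0.32 ± 0.10 (SE, limma adjusted p = 0.0362). That call of the dimmer probe was lost without mock replicate 2 or 3, vanillin replicate 2, or any 1 of the IMQ arrays, with a replicate block (limma adjusted p = 0.0712) and with the third group out of the model (limma adjusted p = 0.119). Rpl19, Rpl24, Rpl29 and Rps16 were also called lower, at -0.45 to -0.28, but each of these calls was lost with a replicate block, with the third group out of the model, and without some single arrays. Rpl19 lost it without any 1 of the mock arrays, IMQ replicate 1 or vanillin replicate 1 or 3. Rpl24 lost it without any 1 of the mock arrays, IMQ replicate 1 or 3 or vanillin replicate 1 or 2. Rpl29 lost it without any 1 array other than mock replicate 2, and Rps16 without any 1 array other than mock replicates 1 and 2. With array weights Rpl19 and Rpl29 lost theirs too, and the limma adjusted p over all these settings reached 0.124.

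Rises against mock were those of Rpl27 (0.57 ± 0.08, limma adjusted p = 0.000795), Rps25 (0.45 ± 0.09), Rps29 (0.71 ± 0.20), Rps3 (0.40 ± 0.11) and Rpl37a (0.36 ± 0.10), beside the Rpl37 probe. Rpl37a read 12.23, 12.11 and 12.11 in mock, 12.13, 12.16 and 12.16 in IMQ, and 12.35, 12.65 and 12.54 in vanillin. The vanillin arrays lay above all 6 others, which was also the case for Rpl23 and the brighter probe of Rpl7l1 and for 7.21% of all probes. The calls of Rps3, Rps29 and Rpl37a were less stable. That of Rps3 was lost without mock replicate 1 or 2, IMQ replicate 1 or vanillin replicate 2 (limma adjusted p up to 0.0895), and with the third group out of the model. For Rps29 it was lost without mock replicate 1 or 3 or vanillin replicate 2 or 3, and with an offset of 50, where the difference was 0.25, with array weights, where it was 0.39, or with the third group out of the model. For Rpl37a it was lost without mock replicate 2 or 3 or vanillin replicate 2, with the third group out of the model (limma adjusted p = 0.0896) and with a replicate block (limma adjusted p = 0.0530). Over all 48 probes the number called higher was 3 without mock replicate 2, 3 without mock replicate 3 and 2 without vanillin replicate 2. The number called lower was 5 without IMQ replicate 1 and 5 without vanillin replicate 1. Not passing the test against mock were Rplp0 (-0.16 ± 0.12, interval -0.44 to 0.11), Rpl8 (-0.01 ± 0.15, interval -0.35 to 0.33) and Rpsa (-0.14 ± 0.27, interval -0.75 to 0.48). Rps27l (-0.35 ± 0.17), the dimmer probe of Rpl7l1 (-0.24 ± 0.11) and the brightest Rpl3l probe (0.29 ± 0.21) were called under array weights and also without mock replicate 1. Without that array they read -0.53, -0.35 and 0.55, and the brighter Rps7 probe (-0.31 ± 0.14) was called only without mock replicate 3.

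Other genes of protein synthesis are given from lists by function, 1 probe per gene. Of 41 initiation factors and their regulators, 9 were called higher, 17 lower and 15 not called for IMQ against mock, with a median of -0.24. The share called was 63.4%, beside 53.6% of all probes. The helicase gene Eif4a2 read -1.74 ± 0.15 and the scaffold Eif4g3 -1.50 ± 0.14, and Eif3i, of the complex that binds the small subunit, read -1.47. Eif4ebp2, an inhibitor of cap-dependent initiation, rose by 1.21. Of 7 elongation factors and related genes, 1 was called higher and 3 lower, 57.1% in all. Tpt1, itself an mRNA with a pyrimidine tract, read -1.79 ± 0.11, and Eef1a2, the form of elongation factor 1 alpha in muscle and nerve, read -1.05 ± 0.14. Eef2 was called higher at 0.24. With vanillin against IMQ, 14 initiation factors were called higher and 11 lower, and of the elongation factors 3 were called higher and 0 lower, among them Eef1a2 at 1.04 and Tpt1 at 0.98. The shares called were 61.0% and 42.9%, beside 41.2% of all probes.

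Genes that build ribosomes in the nucleolus gave 10 higher, 10 lower and 24 not called of 44 for IMQ against mock, with a median of 0.00. The share called was 45.5%, beside 53.6% of all probes. Gar1, of the complex that guides pseudouridylation, rose by 2.30, and Sbds, which readies the large subunit for translation, by 1.45 ± 0.09. Vanillin against IMQ gave 14 higher and 6 lower, with Gar1 at -1.73 and Sbds at -1.06. The share called was again 45.5%, beside 41.2% of all probes. RNA polymerase I and its factors, which transcribe ribosomal RNA, gave 3 higher and 2 lower of 14 for IMQ against mock, 35.7% in all. Here the initiation factor Rrn3 read 0.48 and Taf1a read -0.94.

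Regulators around Myc and mTOR gave 3 higher, 13 lower and 5 not called of 21 for IMQ against mock, with a median of -0.41. The share called was 76.2%, beside 53.6% of all probes. Of 25 listed genes these 21 were measured, and Myc, Mycn and Mycl were not among them. The kinase gene Mtor read -0.83 ± 0.11, Larp1 -1.20 ± 0.19, the mTOR inhibitor Ddit4 -1.33 ± 0.14 and the Myc antagonist Mxd4 -1.11 ± 0.12, while the Myc antagonist Mxd1 rose by 1.20 ± 0.12. The list holds activators and inhibitors of both pathways, so its count has no direction of signalling. With vanillin against IMQ, 10 were called higher and 3 lower, 61.9% in all, beside 41.2% of all probes. Mtor did not pass the test (-0.03 ± 0.11), and Larp1 was higher by 0.55 ± 0.19. Mitochondrial ribosomal proteins, 69 genes of the separate ribosome in mitochondria, gave 11 higher, 21 lower and 37 not called for IMQ against mock, with a median of -0.10, and 23 higher and 8 lower for vanillin against IMQ, with a median of 0.16. The shares called were 46.4% and 44.9%, beside 53.6% and 41.2% of all probes.

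**Figure D5:**
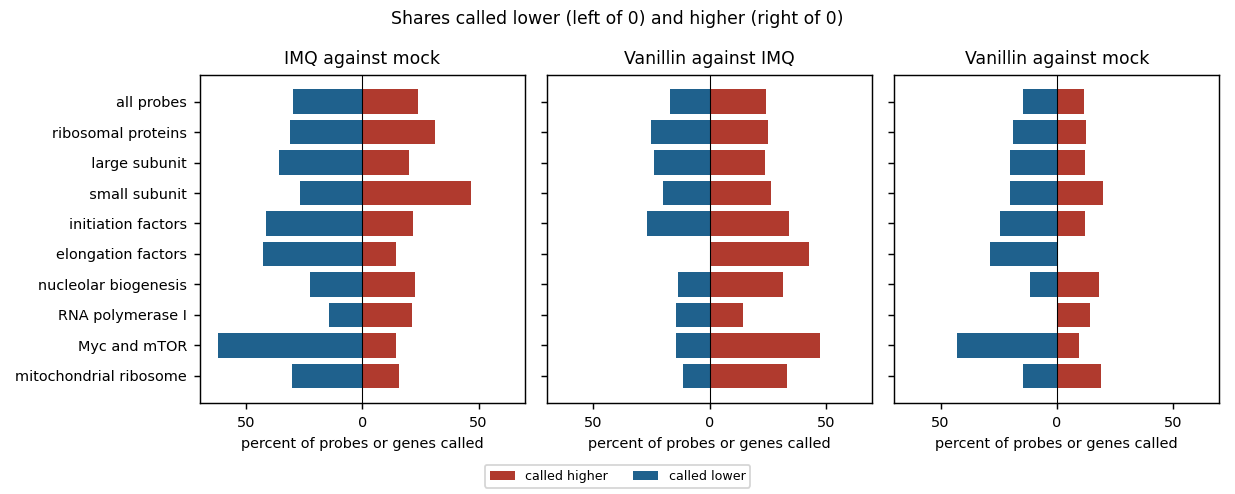
Share of probes (all probes, ribosomal proteins and both subunits) or of genes (all other lists) called lower, to the left of 0, and higher, to the right of 0, in each comparison. Ribosomal proteins have 15 calls each way for IMQ against mock, while the Myc and mTOR list leans to the left with 13 of 21 genes called lower.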

How the data were processed

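The authors deposited linear probe intensities of 9 Cy5-labelled arrays. Per the submitters' processing notes limma was used, with no version. The build, scanner and background correction are not given in the sources read. Sorted values above 100 differed by at most 3.45% between columns, so the deposited intensities had been equalised between arrays. Values under 1 (2 or 3 per array) were set to 1 and log2 was taken. Group means were modelled with limma 3.58.1 under R 4.3.3 on all 9 arrays together, and p-values were adjusted by Benjamini-Hochberg over all 26423 probes. The procedure was tested on simulated data. Symbols came from the platform annotation, 6046 probes having none, and 2126 older symbols were updated through RefSeq.

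Named members are, in every comparison, the top 5 called probes without overlap each way, Rpsa, the stalk, the paralogues with their measured parents, and genes whose probes disagreed; other members are listed for completeness. Of the other lists up to 4 genes with the smallest p were to be named, and a few named outside this rule were chosen after their values were seen. Members and lists were chosen with earlier results of these data known. Other settings tried were quantile normalization, leaving out the dimmest 25% of probes, an offset of 50, array weights, a replicate block, dropping the third group, counting by gene, dropping very bright probes, and dropping each array in turn.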

Additional observations from a re-analysis of the deposited data

How the results depend on the processing

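The counts of ribosomal protein probes called in IMQ against mock, and in vanillin against IMQ, stayed within 1.5 times under quantile normalization, dim probes left out, an offset of 50, the third group out of the model, array weights, the replicate block, 1 probe per gene and very bright probes left out. For vanillin against mock, array weights gave 10 higher. The third group out of the model gave 2 higher and 5 lower, and the replicate block gave 5 lower. The cause was not tested. Leaving out 1 array gave 11 to 16 higher and 9 to 16 lower for IMQ against mock, 8 to 13 and 10 to 16 for vanillin against IMQ, and 2 to 6 and 5 to 10 for vanillin against mock. All probes called then ran from 11551 to 15901, from 6576 to 12805 and from 5507 to 7767. Of all probes called, vanillin against IMQ gave 6923 without IMQ replicate 1 and 6576 without IMQ replicate 3. With the replicate block the counts were 14 higher and 13 lower, 10 and 11, and 4 and 5. Deviations from group means correlated at -0.27 to 0.22 between arrays of the same number and at -0.18 to 0.26 between others. With 3 arrays a group these values cannot settle whether arrays of the same number were paired. Of named results under alternatives, 1124 stayed on the same side of the threshold, 46 lost a call, 27 gained one and no call changed direction. Direction was not compared for results uncalled in both fits. Of 23 calls of members outside the naming rule, 14 were lost in at least 1 alternative. The number of arrays and the unknown background of dim probes limit these values.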

Other observations

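Genes whose names resemble those of ribosomal proteins were left out by the rule and are given here. Fau, which encodes a small subunit protein as a fusion, read 0.08 ± 0.12 (IMQ against mock) and -0.08 ± 0.12 (vanillin against IMQ), and neither passed the test. Rps19bp1, a nucleolar partner of Rps19, read -0.55 ± 0.10 and 0.42 ± 0.10 in the same comparisons. Among the S6 kinases and their relatives, Rps6ka6 was higher with imiquimod by 2.01 ± 0.16 (SE, limma adjusted p = 2.19e-05) and fell by 1.21 ± 0.16 with vanillin against IMQ. Rps6kc1 read 1.30 ± 0.14 and -1.04 ± 0.14 there. Rps6ka3 was lower in both groups treated with imiquimod, at -0.91 ± 0.11 in IMQ and -0.73 ± 0.11 in vanillin against mock. Rps6kb1, the kinase that phosphorylates ribosomal protein S6, had 2 probes for IMQ against mock, the brighter at -0.12 ± 0.08 (limma adjusted p = 0.220) and the dimmer at 0.71 ± 0.17 (limma adjusted p = 0.00686).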
